A study of Rattus norvegicus with 20 samples.

Results

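The comparison of congenic NP.P rats with NP rats asked what the P form of a segment of chromosome 4 does to gene expression in bone when the rest of the genome comes from the NP strain. It used the 5 arrays whose titles name the NP.P congenic strain and the 5 titled for alcohol-non-preferring (NP) rats, 10 of the 20 arrays of the series, and every probe set that was not a control. NP is an inbred strain selected for low alcohol intake, and NP.P was bred by repeated backcrossing to NP with marker selection for the 4q22-q34 segment of the alcohol-preferring P strain. All rats of the series were 4 weeks old, and no treatment was given to either group. The other 10 arrays were of P rats and of the reciprocal congenic, P.NP, in which the NP form of the segment sits on the P background. Per the labels, femurs were taken whole and RNA was made from their proximal ends, with 1 array per sample. Each congenic strain is 1 line, so a difference between NP.P and NP holds for this line. By design the strains differ in the segment, and any other P sequence left from the breeding would also count towards the difference.

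Femur RNA mixes bone cells with the marrow inside the bone, where red cells, platelets, granulocytes and lymphocytes are made. The chromosome 4 segment holds genes of several of these lineages: Kel and Aqp1 encode surface proteins of red cells, Nt5c3a an enzyme of maturing red cells, Gp9 a platelet receptor subunit, and the Gimap genes encode GTPases of lymphocytes. It also holds the Hoxa cluster of homeobox transcription factors and Npy, the precursor of neuropeptide Y, which acts in both brain and bone. In such bulk RNA, fewer cells of a type and less RNA per cell cannot be told apart.

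The deposited values were signal intensities on a linear scale, and all differences below are on the log2 scale as NP.P minus NP. Defining markers of bone were present, with a mean signal over the 20 arrays of 75825 for Col1a1, the collagen of bone matrix, and of 59232 for Bglap, osteocalcin. Skeletal muscle and blood markers were present as well, at 71848 for Acta1 and 69879 for Hbb. The median signal of an array was 300.7 to 322 in NP and 292 to 305 in NP.P rats. Beta-actin signal at the 3' end relative to the 5' end, a measure of RNA integrity and labelling, was 2.23 ± 0.124 (SD, n = 5) in NP and 2.03 ± 0.147 in NP.P rats (p = 0.0635, two-sided exact permutation test; the smallest p it can give is 0.00794). The ratio for GAPDH was 1.08 ± 0.0375 and 1.09 ± 0.00885 (p = 0.77, same exact test). NP replicate 2 stood apart from the other arrays on the first principal component of the 10 arrays, which held 21.9% of the variance, whereas all NP arrays fell on one side and all NP.P arrays on the other side of the second, which held 15.0%.

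Of 18625 probe sets tested, 429 (2.30%) were called, that is, had an adjusted p under 0.10 with limma, 152 (0.816%) higher and 277 (1.49%) lower in NP.P rats. At an unadjusted p under 0.05 there were 2449. All 5 NP.P arrays lay above all 5 NP arrays for 246 probe sets (1.32%) and below them for 365 (1.96%). The median difference over all tested probe sets was -0.01. The number called depended on single arrays. It was 119 without NP.P replicate 4, 165 without NP.P replicate 2, 228 without NP.P replicate 5, 173 without NP replicate 5, 217 without NP replicate 1, 223 without NP replicate 3 and 282 without NP replicate 4, and 100 of the 429 were called whichever array was left out.

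The segment had 21 calls among its 384 tested probe sets (5.47%), 10 higher and 11 lower, for 20 genes. Chromosome 4 outside the segment had 12 among 438 (2.74%), and the other chromosomes had 301 among 13312 (2.26%). By chromosome, chromosome 4 had the highest share called (4.01%), followed by chromosome 20 (3.88%), and chromosome 7 the lowest apart from Y (0.887%). Of the 21 segment calls, 14 were kept in every fit without 1 array, as were 1 of the 12 elsewhere on chromosome 4 and 59 of the 301 on other chromosomes. Sequence variants between P and NP under the probes of the segment were not checked. A call there is therefore a difference in signal, and whether the amount of RNA differs was not tested. The remaining 95 calls were at probe sets without a chromosomal position.

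The segment calls were not spread evenly along it. In gene order, 18 of the 21 lay among the proximal 192 tested probe sets, from Arf5 to Mmrn1 (9.38%), and 3 among the distal 192, from Ccser1 to Ppp4r2 (1.56%), a division chosen after the values were seen. At an unadjusted p under 0.05 the shares were 27.1% and 12.0%. The proximal calls ran from Mest to Nt5c3a, and the 3 distal ones were Gng12, Gp9 and Eif4e3. Called genes were mostly not next to each other, with 1 neighbouring pair of called genes among the 20 in the segment. The ends used here, Arf5 and Ppp4r2, were the outermost of the segment genes listed by the study, not the markers used in the breeding. Arf5 at the proximal end differed by 0.08 (adjusted p = 0.602, limma) and Ppp4r2 at the distal end by -0.02 (adjusted p = 0.897). Just outside these genes, Zfp800 (-0.02, adjusted p = 0.962) and Pdzrn3 (-0.16, adjusted p = 0.653) were not called either. Where the P sequence itself ends was not tested.

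**Figure D1:**
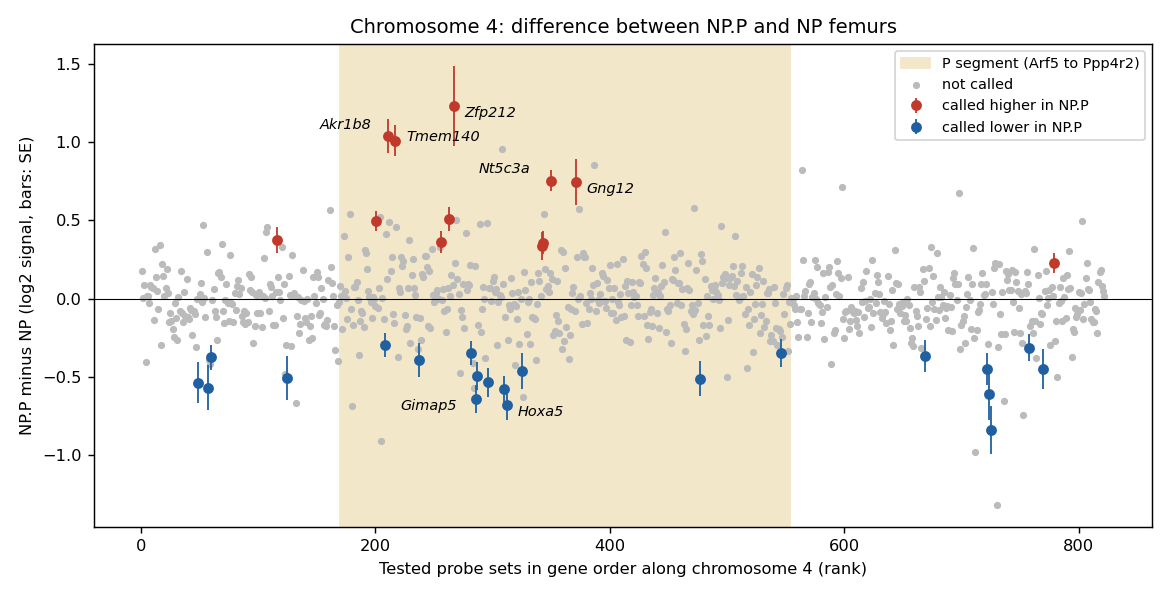
Log2 difference of NP.P from NP for the 822 tested probe sets of chromosome 4, in gene order on the x axis. The segment, taken from Arf5 to Ppp4r2, is shaded, called probe sets are in colour and bars are the standard error. Of the 21 calls inside the segment, 18 sit in its proximal part.

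The clearest differences in the segment were higher signals in NP.P rats. Nt5c3a, a nucleotidase that clears pyrimidines as red cells mature, had signals of 3471, 3208, 3693, 3926 and 3281 in NP replicates 1 to 5 and of 5462, 5738, 5931, 6571 and 5908 in NP.P replicates 1 to 5. Every NP.P array was above every NP array, a 1.69-fold difference (0.75, SE 0.07, adjusted p = 2.38e-05, limma). Tmem140, a transmembrane protein, measured 726, 1033, 843, 1083 and 872 in NP against 1596, 1925, 1758, 2024 and 1802 in NP.P rats. It was 2.01-fold higher, again without overlap (1.01, SE 0.10, adjusted p = 3.69e-05). For Akr1b8, an aldo-keto reductase that reduces aldehydes, the arrays read 403, 417, 331, 447 and 352 in NP and 789.8, 775, 896, 769 and 759 in NP.P rats. The NP.P level was 2.05 times the NP level, without overlap (1.04, SE 0.11, adjusted p = 8.72e-05), and NP.P replicate 3 stood above the other NP.P arrays.

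Mest, an imprinted gene expressed from the paternal copy in mesenchymal tissues, rose from 3482, 3624, 3720.0, 3501 and 3637 in NP to 5046, 5860.4, 4914, 4743 and 4836 in NP.P rats, with no overlap (0.50, SE 0.06, adjusted p = 7.79e-04, limma). Ezh2, the methyltransferase of Polycomb complex PRC2, was called at 1 probe set, at 1521, 1531, 1712, 1683 and 1488 in NP and 2298, 2452, 2152, 2394 and 2000.3 in NP.P rats (0.51, adjusted p = 0.00361). Its probe set with the higher signal differed by only 0.02 (adjusted p = 0.957), so the Ezh2 call rests on one of its probe sets. The same held for Zfp212, a zinc finger gene, which was called at a low-signal probe set (135 ± 53.0 in NP and 300.4 ± 67.3 in NP.P, SD, n = 5; 1.23, adjusted p = 0.03) and not at its brighter one (0.23, adjusted p = 0.721). Gng12, a G protein gamma subunit, was higher at one probe set (0.74, adjusted p = 0.0226), where the lowest NP.P array was below the highest NP array, and differed by -0.08 (adjusted p = 0.685) at the other. Among the 8 called segment genes with more than 1 tested probe set, 1, Aqp1, was called at every one, and for 7 all probe sets had the same sign.

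Kel and Aqp1, genes of the red cell surface, were called higher, and Add2, a protein of the red cell membrane skeleton that also lies in the segment, was not (0.29, adjusted p = 0.13). Kel, the Kell blood group protein, measured 9176, 8475, 9631, 10284 and 9957 in NP against 11346, 13334, 11849, 12656 and 11908 in NP.P rats (0.36, SE 0.07, adjusted p = 0.0203, limma). Aqp1, the water channel of the red cell membrane, measured 11913, 13175, 13436, 15143 and 13748 against 16332, 16817, 17453, 17734 and 17726 (0.36, SE 0.07, adjusted p = 0.03). At these probe sets neither overlapped between the strains. A dimmer Kel probe set differed by 0.33 with overlap and was not called (adjusted p = 0.163). A dimmer Aqp1 probe set differed by 0.34 (adjusted p = 0.0769). That Aqp1 call was lost without NP.P replicate 2 (0.165), 3 (0.129), 4 (0.163) or 5 (0.12) and without NP replicate 1 (0.167), 3 (0.128), 4 (0.108) or 5 (0.12). Bpgm, the red cell enzyme that makes 2,3-bisphosphoglycerate, and Abcg2, a porphyrin transporter, did not pass (0.27, adjusted p = 0.106; 0.31, adjusted p = 0.114). Red cell genes elsewhere in the genome had a median difference of 0.20, and their part in the values of Nt5c3a, Kel and Aqp1 was not tested.

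Among the lower genes of the segment, Skap2, an adaptor of integrin signalling in leukocytes, had signals of 5629.6, 4416, 4362, 5174 and 6057 in NP and of 3489, 3380.1, 3372, 3191 and 3638 in NP.P rats. Gimap5, which lymphocytes need for survival, had 1198, 1270.0, 1319.8, 1223 and 1037 against 899, 693, 776, 739 and 776. In both genes all NP.P arrays lay below all NP arrays, by 0.58 (SE 0.08) for Skap2 and 0.64 (SE 0.09) for Gimap5 on the log2 scale (adjusted p = 0.00202 for each, limma). Gimap6 was lower as well (-0.35, adjusted p = 0.034; 0.106 without NP.P replicate 4), whereas Gimap4 (0.21, adjusted p = 0.435), Gimap7 (-0.41, adjusted p = 0.276) and Gimap1 (0.21, adjusted p = 0.629) were not called. Tmem176b, a membrane protein of dendritic cells and macrophages, fell by 0.49 (SE 0.09, adjusted p = 0.0171), from 5327 ± 538 to 3779 ± 303 (SD, n = 5).

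Hoxa5, a homeobox factor that patterns the axial skeleton, measured 596, 836, 791, 622 and 679 in NP and 420.5, 464, 459, 472 and 375 in NP.P rats. The NP.P arrays were all below the NP arrays (-0.68, SE 0.10, adjusted p = 0.00215, limma). The other tested members of the Hoxa list, Hoxa10 (-0.07), Hoxa9 (-0.04), Hoxa11 (0.13) and Hoxa7 (-0.26), had adjusted p values from 0.841 to 0.866, and Hoxa3l1, which the list did not hold, differed by -0.12 (adjusted p = 0.835). Npy measured 9111, 10282, 9548, 8558 and 8894 in NP and 6091, 6942, 7025, 5366 and 6699.8 in NP.P rats (-0.53, SE 0.09, adjusted p = 0.0104). It, too, showed no overlap between the strains.

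Gp9, a subunit of the platelet receptor for von Willebrand factor, was at 2404, 2176, 2427, 2319.8 and 2096 in NP and at 1856, 1644, 1579.9, 1247 and 1744 in NP.P rats (-0.51, SE 0.11, adjusted p = 0.0346, limma; 0.101 without NP.P replicate 4). Tbxas1, thromboxane synthase, fell by 0.39 (adjusted p = 0.0902), with overlap. The weakest calls of lower genes in the segment were those of Tbxas1, Chn2, Eif4e3 and Slc35b4. Differences were -0.46 (adjusted p = 0.0619) for Chn2, a Rac GTPase activator, and -0.35 (adjusted p = 0.073) for Eif4e3, a cap-binding protein. Slc35b4, a nucleotide sugar transporter, differed by -0.29 (adjusted p = 0.0731). Without single arrays Chn2 was lost at adjusted p values of 0.102 to 0.158 (NP replicate 3 or 5 or NP.P replicate 4). Tbxas1 was lost at 0.102 to 0.205 (NP replicate 2, 3, 4 or 5 or NP.P replicate 1, 2, 3 or 4). Eif4e3 was lost at 0.109 to 0.147 without any array but NP replicate 4 or NP.P replicate 1. Slc35b4 was lost at 0.116 to 0.162 without any array but NP replicate 2 or 4 or NP.P replicate 1. The Eif4e3 call is at the dimmer of its probe sets, and the brighter one was not called (-0.24, adjusted p = 0.166). Chn2 and Slc35b4 had dimmer probe sets that were not called (adjusted p of 0.529 and 0.605 at the lowest). Outside the segment the median difference was -0.34 for the megakaryocyte list and -0.41 for the B lymphoid list, and their part in the values of Gp9, Skap2 and the Gimap genes was not tested.

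**Figure D2:**
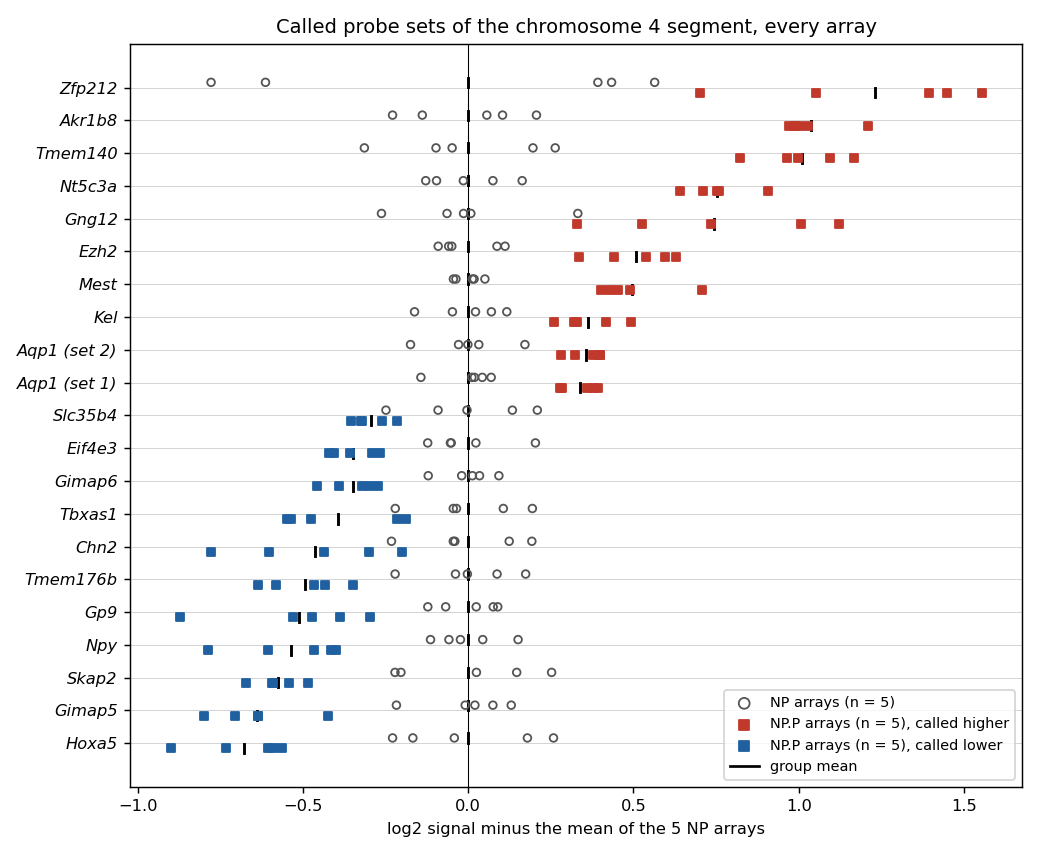
Log2 signal of every NP (open circles) and NP.P (squares) array, relative to the NP mean, for the 21 called probe sets of the segment; black ticks are means of 5 arrays. The NP.P arrays of Nt5c3a, Tmem140 and Akr1b8 are clear of the NP arrays, and those of Gng12, Chn2, Tbxas1 and Slc35b4 overlap them.

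The reciprocal strains put the same segments on the other background, and P.NP and P rats share no array with NP.P and NP. There, 43 of 18625 probe sets (0.231%) were called. The P segment had the same sign of effect on both backgrounds (NP.P minus NP, and P minus P.NP) for 20 of the 21 called segment probe sets (95.2%), against 7 of the 12 called ones elsewhere on chromosome 4 (58.3%) and 57.5% of those called on other chromosomes. Over all tested probe sets the share was 52.3%. For the 21, the median size was 0.51 on the NP background and 0.21, in the same direction, on the P background. The 21 were selected by their difference on the NP background, which favours a larger median there, so these sizes do not compare the backgrounds. Nt5c3a (-0.63 for P.NP minus P, adjusted p = 2.12e-04, limma), Ezh2 (-0.80, adjusted p = 7.80e-05), Akr1b8 (-0.65, adjusted p = 0.0192) and Tmem140 (-0.53, adjusted p = 0.0416) were also called there, lower in the rats that lacked the P segment.

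Sizes on the 2 backgrounds were compared with an interaction term, which passed for 59 probe sets in all (0.317%) and for 1 of the 21. That one was Gng12, which differed by 0.74 as NP.P minus NP and by 0.36 as P.NP minus P (interaction 1.11, adjusted p = 0.0367, limma). Of the lower genes, Skap2 and Npy differed by 0.13 and 0.10 as P.NP minus P, and their interactions did not pass (adjusted p = 0.152 and 0.243). On other chromosomes 25 of the 301 calls had an interaction that passed. The interaction contains the difference by which these calls were selected, so the selection raises this count.

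**Figure D3:**
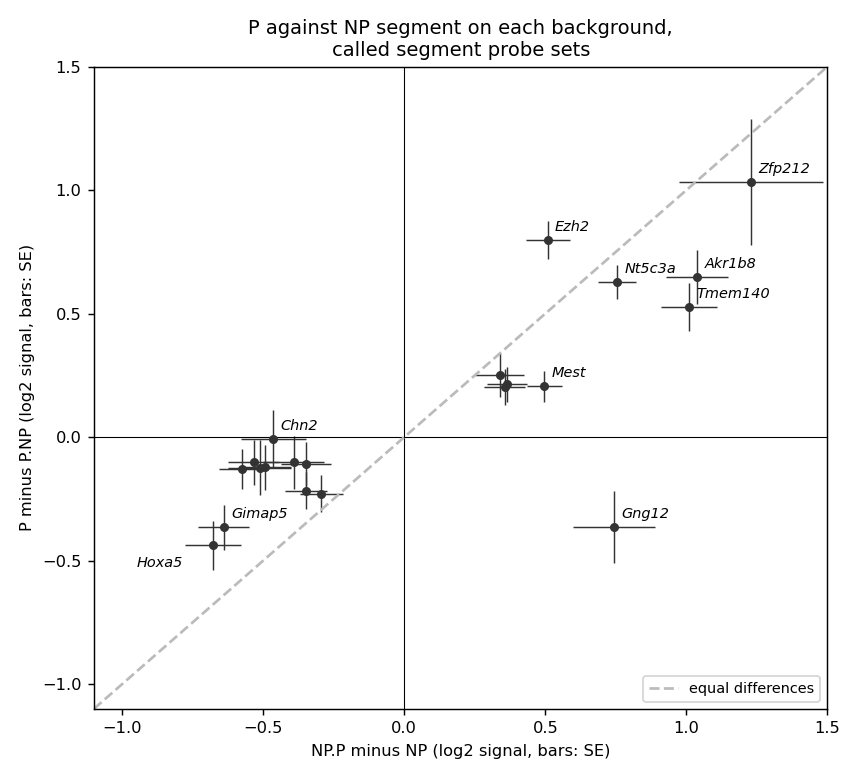
Effect of the P segment on the NP background (x axis, NP.P minus NP) and on the P background (y axis, P minus P.NP) for the 21 called segment probe sets, in log2 signal with standard errors; the dashed line marks equal effects. All points but Gng12 lie in the quadrants of equal sign.

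Outside the segment the largest rise was that of Mylk3, the cardiac type of myosin light chain kinase, on chromosome 19. Its signal was 228, 274, 323, 391.7 and 458 in NP and 770.4, 1080.4, 827, 1167 and 1267 in NP.P rats, 3.09-fold higher with no overlap (1.63, SE 0.19, adjusted p = 2.77e-04, limma). As P.NP minus P it differed by 0.50 (adjusted p = 0.494), which was not called, and the interaction passed (2.12, adjusted p = 0.00183). Clic2, a chloride channel-like protein, read 4362, 4349, 3675, 5971 and 4881 in NP and 6724, 10846, 8269, 11463 and 11657 in NP.P rats (1.06, SE 0.15, adjusted p = 0.00202). Mt2A, a metal-binding metallothionein, went from 3229, 3249, 3359, 3800.2 and 4355 to 5519, 5271, 5823, 5208 and 4991 (0.58, SE 0.12, adjusted p = 0.031). Neither overlapped between the strains, and for both the interaction passed (adjusted p = 0.0137 and 0.00788). As P.NP minus P, Clic2 differed by 0.28 (adjusted p = 0.726, limma), which was not called. Mt2A was called higher there too (0.56, adjusted p = 0.0946, limma). Mt2A was thus higher in both congenic strains, which carry opposite forms of the segment, and the cause was not tested.

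Igf2, a growth factor of fetal and early life, was higher in all 5 NP.P rats, with 15066, 20024, 20674, 21652 and 17423 against 11152, 14825, 10355, 10080.2 and 9729 in NP rats (0.76, SE 0.16, adjusted p = 0.0321, limma; 0.101 without NP.P replicate 4). Of the 16 tested genes of the growth hormone and IGF axis, each read at its brightest probe set, Igf2 was the only one called. Igf1, the growth factor that acts on bone after birth, differed by -0.22 there (adjusted p = 0.23) but was called lower at a dimmer probe set (-0.33, SE 0.07, adjusted p = 0.0299). At that probe set its arrays read 5649, 5783, 4832.3, 5707 and 5706 in NP and 4831.8, 4670.1, 4381, 3902 and 4191 in NP.P rats, which touch but do not overlap. Grb10, an imprinted inhibitor of insulin and IGF receptor signalling, was higher by 0.49 (SE 0.10, adjusted p = 0.0311) at the dimmer of its probe sets and was not called at the brighter one (0.215, adjusted p = 0.284). At the dimmer one the arrays ran from 1273 to 1658 in NP and from 1684 to 2216 in NP.P rats.

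Genes of red cell formation were higher in NP.P rats. Of 52 tested members of 6 erythroid lists, 11 were called higher, 0 lower and 41 were not called, with a median difference of 0.21 and positive values for 51. For these and the other lists, the shares over all tested probe sets were 0.816% called higher and 1.49% called lower. The lists were chosen with earlier results of these data known, so their counts are not independent evidence. Heme synthesis had the most calls, 5 of 10 with a median of 0.25: Abcb10, a mitochondrial transporter (0.32, adjusted p = 0.032, limma), and the enzymes Alad (0.29, adjusted p = 0.0792), Cpox (0.29, adjusted p = 0.0902), Urod (0.28, adjusted p = 0.084) and Fech, which inserts the iron (0.25, adjusted p = 0.073). Fech measured 20209, 22475, 22789.7, 23137 and 21384 in NP and 24790.2, 25139, 27042, 27191 and 26258 in NP.P rats. These arrays did not overlap, and of the 5 genes Cpox alone did. The calls of Alad, Cpox, Urod and Fech were each lost without 6 to 8 single arrays, at adjusted p values up to 0.187, 0.223, 0.185 and 0.174; all 4 were lost without NP replicate 1 or 5 or NP.P replicate 2, 4 or 5. Alas2, which starts the pathway in red cells, did not pass (0.16, adjusted p = 0.322).

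Slc25a37, mitoferrin, which brings iron into the mitochondria for heme, was the 1 called gene of 4 in the iron uptake list. It measured 16042, 13940.4, 17507, 15978 and 16037 in NP and 18382, 22135, 19958, 20728 and 20569.8 in NP.P rats (0.36, SE 0.06, adjusted p = 0.0133, limma). Eif2ak1, the kinase that slows translation when heme is short, was higher by 0.33 (SE 0.07, adjusted p = 0.0265). Hemgn, a nuclear protein of red cell precursors, was the 1 call among 10 regulators (0.28, adjusted p = 0.0321), and Klf1 (0.35, adjusted p = 0.116) and Gata1 (0.11, adjusted p = 0.612) were not called. Membrane and blood group genes had 3 calls of 15 (Kel, Aqp1 and Xk, the last at 0.26, adjusted p = 0.0907, and lost at 0.134 to 0.225 without NP replicate 2, 3, 4 or 5 or NP.P replicate 2, 4 or 5), and the 4 tested globin and chaperone genes had 0 by limma (1 at an unadjusted p under 0.05, and 1 called without NP replicate 2), with Hbb at 0.03 (adjusted p = 0.949). Alox15, the lipoxygenase that helps reticulocytes shed their mitochondria, rose from 23230.0, 31035, 25884, 28515 and 32346 in NP to 36263, 45215, 41403, 43641 and 51801 in NP.P rats (0.63, SE 0.11, adjusted p = 0.0104). Xpo7, a nuclear exporter of maturing red cells (0.42, adjusted p = 0.00526), and Ypel5 (0.46, adjusted p = 0.00306; 0.24, adjusted p = 0.194, at a dimmer probe set) were higher too. Eif2ak1, Alox15, Xpo7 and Ypel5 are not members of the 6 erythroid lists. The list of maturation and red cell enzymes had 1 call of 9, the segment gene Nt5c3a, with a median of 0.19.

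The mean log2 level of the 52 genes, each centred on its mean over the 20 arrays, was -0.05 to 0.08 in NP and 0.15 to 0.28 in NP.P rats. Of these genes 6 lie in the segment, and Kel, Aqp1 and Nt5c3a, which are among the 11 called, belong to those 6. The number called fell from 11 to 6 without NP replicate 5 or NP.P replicate 2, 4 or 5, to 7 without NP replicate 1 or 3, and was 9 without NP replicate 2. After quantile normalization it was 6. The heme synthesis count fell from 5 to 1 without NP replicate 1 or 5 or NP.P replicate 2, 4 or 5, to 2 without NP replicate 3 or NP.P replicate 3, and to 3 without NP replicate 2. After quantile normalization it was 1, with a median of 0.18. Epb41, a protein of the membrane skeleton, is not among the 11 (0.12, adjusted p = 0.541) but was called higher at a dimmer probe set (0.39, adjusted p = 0.032).

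**Figure D4:**
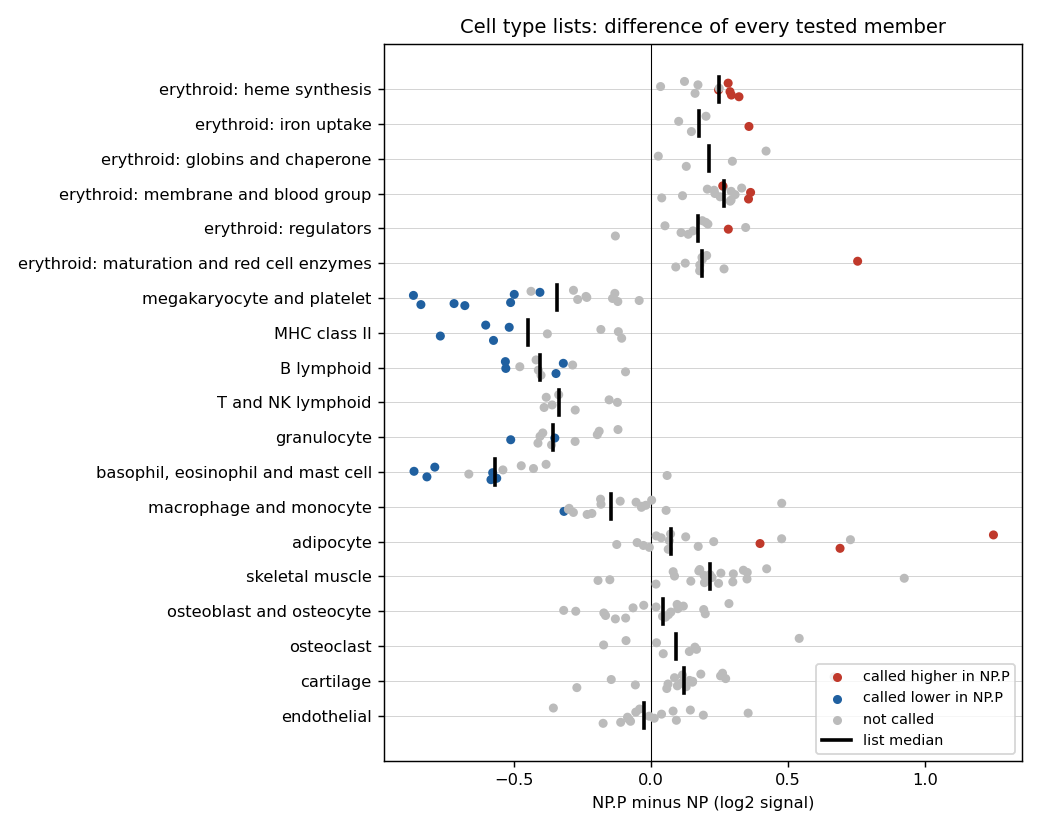
Log2 difference of NP.P from NP for every tested member of 19 lists of cell types, with called members in colour and the list median as a black line. The 6 erythroid lists (medians 0.17 to 0.27) and the skeletal muscle list (median 0.21, none called) lie to the right of 0. The megakaryocyte, MHC class II, lymphoid and granule lists lie to the left, and bone, cartilage and vessel lists around 0.

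Genes of megakaryocytes and platelets were lower. Of 16 tested, 7 were called lower and 0 higher, with a median of -0.34 and negative values in all 16. Ppbp, a chemokine stored in platelet granules, measured 6614, 7885, 7306, 7427 and 6869.5 in NP and 4764, 4073, 4162, 3182 and 3762 in NP.P rats (-0.87, SE 0.12, adjusted p = 0.00202, limma). Clec1b, the platelet receptor for podoplanin, on chromosome 4 distal to the segment, measured 1742, 2004, 2299, 2050.3 and 1994 against 1003, 1004, 1505, 892 and 1327 (-0.84, SE 0.15, adjusted p = 0.0133). In both, no NP.P array reached the NP range. Alox12, the platelet lipoxygenase (-0.68, adjusted p = 0.031), Rgs18 (-0.50, adjusted p = 0.0219), and F5, coagulation factor V, which is not a list member (-0.58, adjusted p = 0.00497), were lower as well. Gp5, a partner of Gp9 in the same receptor, fell by 0.72 on the log2 scale (adjusted p = 0.0547), a call lost at 0.116 to 0.131 without NP replicate 1 or 5 or NP.P replicate 2 or 4. Treml1 was lower as well (-0.40, adjusted p = 0.0818), a call lost at 0.101 to 0.206 without any array but NP.P replicate 1 or 3. Pf4 (-0.24, adjusted p = 0.186) and Itga2b (-0.12, adjusted p = 0.719) were not called. The list's mean level was 0.26 to 0.39 in NP and -0.34 to 0.07 in NP.P rats, and 4 of the 7 calls were left without NP.P replicate 4.

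MHC class II molecules present peptides to helper T cells and are made by B cells, dendritic cells and macrophages. Of 8 tested class II genes, 4 were called lower and 0 higher, with a median of -0.45 and negative values in all 8. RT1-Db1, a beta chain, measured 1145, 1005, 1102, 1111 and 1092 in NP and 792, 739.6, 701, 643 and 723 in NP.P rats, without overlap (-0.60, SE 0.08, adjusted p = 0.00101, limma). RT1-Ba, an alpha chain, measured 1274, 1078, 1224, 1437 and 1391 against 1008, 691, 852, 504 and 784 (-0.77, SE 0.15, adjusted p = 0.0223). Cd74, the invariant chain that fills the groove until peptide is loaded, fell from 8176, 7195, 8523, 8624 and 8404 to 6986, 5199, 6001, 4348 and 5245 (-0.57, SE 0.10, adjusted p = 0.0133). Dimmer probe sets of RT1-Ba and RT1-Db1 were not called (adjusted p from 0.375 to 0.983), and 1 of those of RT1-Ba had a positive difference (0.47). At the brightest probe sets the arrays of RT1-Db1, RT1-Ba and Cd74 did not overlap between the strains, and those of RT1-Da did (-0.52, adjusted p = 0.032; 0.101 without NP.P replicate 4). RT1-Bb (-0.38, adjusted p = 0.808), RT1-DMb (-0.18, adjusted p = 0.512), RT1-DMa (-0.12, adjusted p = 0.711) and Ciita, their coactivator (-0.11, adjusted p = 0.82), were not called. As P.NP minus P, RT1-Db1 differed by 0.01, and the interaction passed (-0.59, adjusted p = 0.0377). The list's mean level was 0.41 to 0.64 in NP and -0.03 to 0.43 in NP.P rats.

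Class II genes share a promoter element, the Y box, which is bound by the factor NF-Y. The promoters of the 3 called chain genes are shown because they moved together; each line gives 120 bases upstream of the gene start from RefSeq (GRCr8), with the Y box letters CTGATTGG in capitals. RT1-Ba lies at chr20:4576937-4577056 on the plus strand, RT1-Da at chr20:4515295-4515414 on the plus strand and RT1-Db1 at chr20:4560163-4560282 on the minus strand.
RT1-Ba: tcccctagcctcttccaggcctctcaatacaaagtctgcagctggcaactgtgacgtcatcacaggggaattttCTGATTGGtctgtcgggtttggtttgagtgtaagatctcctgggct
RT1-Da: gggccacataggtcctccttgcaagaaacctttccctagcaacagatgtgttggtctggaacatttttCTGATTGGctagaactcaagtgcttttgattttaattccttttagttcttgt
RT1-Db1: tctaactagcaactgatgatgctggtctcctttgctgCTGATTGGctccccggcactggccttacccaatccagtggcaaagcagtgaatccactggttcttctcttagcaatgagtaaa
The motif starts 46, 52 and 83 bases before the gene start. On either strand it was found in 6 of the 9 class II promoters in the table, the uncalled RT1-Bb among them, and in 1172 of all 33469 promoters (3.50%), each 300 bases long. The promoter of Cd74 did not hold these letters. A match describes the sequence and says nothing of binding in these femurs.

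Granule genes of basophils, eosinophils and mast cells were lower, with 6 of 12 called, 0 called higher and a median of -0.57. Mcpt8, a protease of basophils, measured 3684, 3677, 3977, 4132 and 4042 in NP and 2929, 1957, 2192, 1784 and 2011 in NP.P rats (-0.86, SE 0.14, adjusted p = 0.00526, limma). Epx, eosinophil peroxidase, measured 8505, 9192, 10898, 9059 and 8253 against 6292, 5605, 4268, 3970.1 and 6283 (-0.82, SE 0.17, adjusted p = 0.0265). Both were without overlap, as were Cpa3, a mast cell carboxypeptidase (-0.56, adjusted p = 0.0265), and Prg2, the eosinophil major basic protein (-0.79, adjusted p = 0.032; 0.101 without NP.P replicate 4). The interaction passed for Epx (adjusted p = 0.0748) and Prg2 (adjusted p = 0.0282). Cma1, a chymase (-0.58, adjusted p = 0.0799), was lost at 0.107 to 0.202 without any array but NP replicate 1 or NP.P replicate 1 or 3. Mcpt10, another protease (-0.58, adjusted p = 0.094), was lost at 0.137 to 0.245 without any array but NP.P replicate 1 or 3. The list had 3 calls without NP.P replicate 4. Gata2, a regulator of these lineages, was not called (0.06, adjusted p = 0.883).

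Of 10 tested neutrophil granulocyte genes, 2 were called lower with a median of -0.36 over the list. Fcnb, a ficolin of neutrophil granules, measured 8258, 8952, 9257, 9288 and 8305 in NP and 7258, 5658, 6451, 5215 and 6495 in NP.P rats (-0.51, SE 0.09, adjusted p = 0.0141, limma). Lcn2, lipocalin 2, was lower by less (-0.35, adjusted p = 0.0774; 0.2 without NP.P replicate 4, 0.173 without NP.P replicate 2, and 0.136, 0.164 and 0.114 without NP replicate 1, 3 and 4). The abundant S100a8 and S100a9 were not called (-0.19, adjusted p = 0.361; -0.12, adjusted p = 0.607). Irf8, a transcription factor of monocytes and dendritic cells, was lower in every NP.P array (-0.53, SE 0.11, adjusted p = 0.0265), and C1qc alone of 16 macrophage and monocyte genes was called (-0.32, adjusted p = 0.0641; 0.17 without NP.P replicate 4, 0.126 without NP.P replicate 2, 0.136 and 0.138 without NP replicates 3 and 5).

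B lymphoid genes had 4 calls of 10, all lower, with a median of -0.41. They were Ms4a1, the CD20 antigen (-0.53, adjusted p = 0.0421, limma), Cd79b of the B cell receptor (-0.53, adjusted p = 0.0799), the adaptor Blnk (-0.35, adjusted p = 0.073) and Fcrla (-0.32, adjusted p = 0.0861). All 4 overlapped between the strains. Ms4a1 was lost without NP.P replicate 2 (0.114) or 4 (0.127) and the others without 7 or 8 single arrays, at up to 0.2 for Cd79b, 0.18 for Blnk and 0.209 for Fcrla. None of the 4 was called without NP.P replicate 2 or without NP.P replicate 4, where the list had 0 calls, and the list had 1 or 2 without NP replicate 1 (2), 3 (1), 4 (1) or 5 (1) or NP.P replicate 3 (2) or 5 (1). It had 7 without NP.P replicate 1. The 7 tested T and NK genes had a median of -0.34 and 0 calls by limma, with 2 at an unadjusted p under 0.05 and 1 call without NP.P replicate 1. Of 16 MHC class I and peptide loading genes, RT1-S3 was called, and higher (0.41, adjusted p = 0.0655), and was lost at 0.107 to 0.173 without NP replicate 3, 4 or 5 or NP.P replicate 2 or 4.

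**Figure D5:**
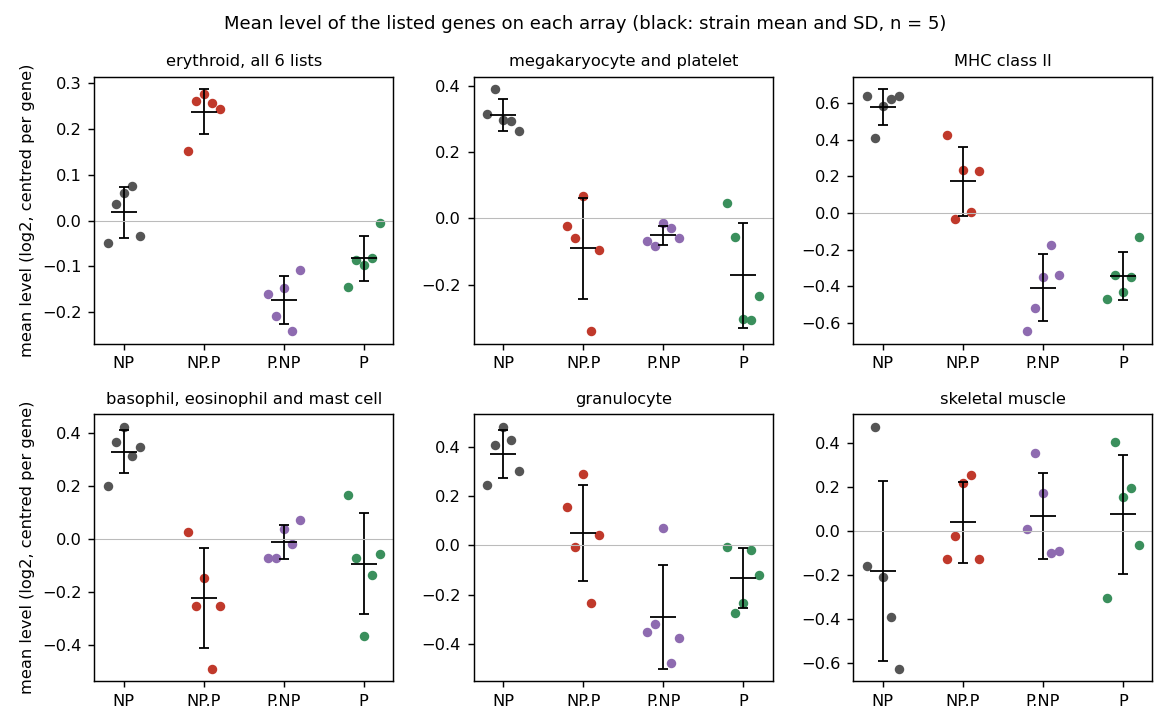
Mean log2 level of the tested genes of 6 lists on each array, every gene centred on its average of all 20 arrays, by strain (2 inbred and 2 congenic); bars are the strain mean and SD of 5 arrays. NP.P arrays lie above all NP arrays for the erythroid genes and below all of them for the megakaryocyte and the basophil, eosinophil and mast cell genes, whereas the muscle level of NP rats spans -0.63 to 0.47.

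The bone lists held no calls at the probe sets read. Over all tested probe sets 2.30% were called, and lists this short would hold few calls at that share. Their lack of calls therefore does not set bone apart. None of 19 osteoblast and osteocyte genes was called by limma (median 0.04), among them Col1a1 (0.05, SE 0.10, adjusted p = 0.876) and Bglap (-0.09, SE 0.08, adjusted p = 0.686). None of 8 osteoclast genes (median 0.09), 18 cartilage genes (0.12), 16 endothelial genes (-0.02) or 22 skeletal muscle genes (0.21) was called either. At an unadjusted p under 0.05 there were 2 osteoblast and osteocyte, 0 osteoclast, 0 cartilage, 2 endothelial and 3 muscle genes. Over all tested probe sets 13.1% passed that level. After quantile normalization 2 osteoblast and osteocyte genes and 1 endothelial gene were called; without NP replicate 1 the former had 1 call, and without NP replicate 2 or NP.P replicate 5 the latter had 1. Without NP replicate 2, 2 muscle genes were called and the muscle median was 0.36, while the medians of the osteoblast (-0.05), osteoclast (-0.02) and cartilage (-0.03) lists were below 0. Ogn, osteoglycin, a list member read at another probe set (-0.27, adjusted p = 0.134), was called lower at a dimmer one (-0.34, adjusted p = 0.0861), a call lost at 0.11 to 0.186 without any array but NP.P replicate 2. The median of the osteoblast list changed sign under that scaling, to -0.02. In the Wnt list 0 of 15 genes were called by limma (3 at an unadjusted p under 0.05, and 1 called without NP replicate 2 or NP.P replicate 1), and in the BMP and TGF-beta list 1 of 27, Id4, an inhibitor of differentiation (-0.51, SE 0.10, adjusted p = 0.0299). Acvr1, a BMP receptor (0.01, adjusted p = 0.981), was lower at a dimmer probe set (-0.54, adjusted p = 0.0919), a call lost at 0.134 to 0.201 without any array but NP replicate 2. The muscle level ranged over -0.63 to 0.47 in NP and -0.13 to 0.25 in NP.P rats, so the strains overlapped, and NP replicate 2 had the highest value.

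Of 17 adipocyte genes, 3 were called higher with a list median of 0.07. Adipoq, adiponectin, measured 899.7, 1170.0, 900.0, 778 and 1067 in NP and 1516, 1916, 1349, 1624 and 1349 in NP.P rats (0.69, SE 0.15, adjusted p = 0.034, limma). Scd, the desaturase that makes monounsaturated fatty acids, was 2.38-fold higher (1.25, adjusted p = 0.0685), and Fabp4, a fatty acid carrier, was higher by 0.40 (adjusted p = 0.0902). The 3 calls had adjusted p values of up to 0.101, 0.145 and 0.223 without single arrays. No adipocyte gene was called without NP.P replicate 2 or without NP.P replicate 4, and 1 was without NP replicate 1, 4 or 5 or NP.P replicate 5. Cfd (0.17, adjusted p = 0.536) and Lpl (0.07, adjusted p = 0.895) were not called.

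Some changes fell outside these groups. Npas2, a clock transcription factor, measured 619.5, 524, 512, 433 and 402 in NP and 327, 208, 234, 212 and 220.1 in NP.P rats (-1.06, SE 0.20, adjusted p = 0.0177, limma), and was the only called gene of 15 in the clock list. Stfa2l2, a stefin of myeloid cells, was called lower in NP.P (-0.62 as NP.P minus NP, adjusted p = 0.0235, limma) and in P.NP (-0.88 as P.NP minus P, adjusted p = 0.0044). It was thus lower in both congenic strains, which carry opposite forms of the segment (interaction -1.50, adjusted p = 0.0011). The gene lies outside the segment, and the cause was not tested. The largest fall was that of Rab15, a small GTPase of endosomes, with dim signals of 192, 227, 245, 300.5 and 351 in NP and 149, 123, 10.6, 25.9 and 109 in NP.P rats (-2.20, SE 0.53, adjusted p = 0.0574), a call lost without NP replicate 3, 4 or 5 (0.102, 0.103 and 0.129) or NP.P replicate 4 (0.156). Of 21 glutathione and aldo-keto reductase genes, Akr1b8 and Gclm, a subunit of the enzyme that starts glutathione synthesis (0.33, adjusted p = 0.0299), were called higher. None of 12 alcohol and aldehyde metabolism genes was called by limma, and 5 had an unadjusted p under 0.05; without NP replicate 2, 1 was called.

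The study had named genes of interest inside and outside the segment on the basis of these same samples, so the following counts are not independent evidence. Of 42 such segment genes tested, 3 were called higher (Tmem140, Nt5c3a and Kel) and 6 lower (Hoxa5, Skap2, Npy, Tmem176b, Chn2 and Slc35b4), and 33 were not called at their brightest probe set, Eif4e3 among them. Of 6 outside it, Ptgfrn, an inhibitor of prostaglandin F2 alpha receptor binding (0.56, SE 0.07, adjusted p = 0.00104, limma), Otub2, a deubiquitinase (0.35, adjusted p = 0.0268), and Dnajb2, a chaperone (0.25, adjusted p = 0.0461), were called higher and RT1-Db1 lower. F13a1, the coagulation factor XIII A chain, was not called at its brighter probe set (-0.30, adjusted p = 0.18) but was called lower at a dimmer one (-0.44, SE 0.10, adjusted p = 0.0461), a call lost without NP replicate 3 or 5 (0.103 each) or NP.P replicate 2 (0.107) or 4 (0.131). At that probe set the arrays ran from 1040.6 to 1209 in NP and from 753 to 902 in NP.P rats, without overlap. Bnip3l, a receptor for the removal of mitochondria, was not called (0.18, adjusted p = 0.26). The Dnajb2 call was lost without NP replicate 3 (0.102) or NP.P replicate 2 (0.117) or 4 (0.106). Ptgfrn measured 1198, 1099, 1069.9, 1029 and 1013 in NP and 1506, 1687, 1554, 1553 and 1645 in NP.P rats.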

How the data were processed

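Proximal femur RNA of the inbred P and NP and the congenic strains NP.P and P.NP, 5 rats of each, was hybridised to 1-colour Affymetrix arrays. The authors deposited MAS5 signal intensity values on a linear scale, made with GCOS 1.2, in which every array has the same 2% trimmed mean. The study's own tests used RMA values and detection calls of these arrays, which were not used here. Of 31042 probe sets other than controls, 20826 carried 1 gene symbol in the platform annotation and only these were named; positions and gene order came from RefSeq GRCr8, while the build behind the annotation is not given in the sources used here. The segment ran on chromosome 4 from Arf5 through Ppp4r2 in gene order (588 probe sets, 397 genes). These were the outermost of the segment genes listed by the study, and the P sequence may end elsewhere.

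Signals below a floor of 1 (190 values) were raised to it before the log2 step. Probe sets whose mean log2 value reached the 40th percentile of all, 169.7 as a signal, went into limma 3.58.1 in R 4.3.3, as 4 strain means fitted over 20 arrays, and p values were adjusted by Benjamini-Hochberg over all 18625 tested. A false discovery rate of 10% was used. A gene was read at its tested probe set of highest mean unless stated. Named were the 20 higher and 20 lower probe sets of smallest adjusted p inside and outside the segment, the 10 largest changes each way, called members of 39 lists with up to 4 uncalled ones, study genes, and genes at the segment ends; further uncalled list members, and list genes called at a dimmer probe set only, were chosen after their values were seen. The members and lists were chosen with earlier results of these data known. Nothing states that arrays of a strain came from separate litters, so p values measure the spread between these animals. The number of arrays limits the precision. The fit was tested on simulated data. Figures were drawn in Python 3.11.15 with matplotlib 3.10.9.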

Additional observations from a re-analysis of the deposited data

Results flagged for a closer look

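In 244 groups of 5 arrays examined over the named probe sets, the most extreme array was set apart from the other 4 in 10, where chance alone marks about 1 in 20 groups. Signals far above the rest of their strain were 895.5 for Akr1b8 in NP.P replicate 3 and 327.1 for Npas2 in NP.P replicate 1. Signals far below it were found in NP replicate 2 for RT1-Da (4316.0), Blnk (7253.8), Casp1 (1358.4) and Tcof1 (110.6). In NP replicate 1 they were those of the dimmer Aqp1 probe set (5176.7) and Abcb10 (11030.5), in NP.P replicate 1 that of Hk1 (6229.7), and in NP.P replicate 2 that of Pld1 (68.47).

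For 19 named probe sets the difference of NP.P from NP was unlike that of P from P.NP, by limma's interaction term at an adjusted p under 0.10. The named probe sets were largely picked by NP.P minus NP, which is part of the interaction, so that choice raises this count. The difference (log2, NP background minus P background) was positive for Mylk3 (2.12), Clic2 (1.34), Mt2A (1.15), Gng12 (1.11), Alox15 (0.72), Tinagl1 (0.63), Ptgfrn (0.62) and Arhgef37 (0.55). It was negative for Stfa2l2 (-1.5), Prg2 (-1.33), Epx (-1.09), Ppbp (-0.84), Nrgn (-0.73), Tia1 (-0.72), Fcnb (-0.65), F5 (-0.64), RT1-Db1 (-0.59), Siglec5 (-0.58) and Casp1 (-0.49). Gng12 and Tia1 lie in the segment.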

How the results depend on the processing

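No named call turned its direction under any alternative that tested it; the filter at the 60th percentile tested 88 of the 101. Counts are given as higher and lower in NP.P, over all probe sets (152 and 277 as reported), in the segment (10 and 11) and at placed probe sets outside it (101 and 212). Without the filter they were 56 and 76, 9 and 7, and 33 and 51, with 18 for P.NP against P and 17 interactions. With a filter at the 60th percentile there were 241 higher, 18 of them in the segment and 172 placed outside it, and 127 interactions. With only the 2 strains compared they were 25 and 41, 5 and 5, and 15 and 28, and 11 in the reciprocal pair. By the methods' unequal-variance test after Benjamini-Hochberg they were 8 and 2, 2 and 0, and 4 and 2, and 0 in the reciprocal pair. At an adjusted p under 0.05 they were 65 and 93, 9 and 7, and 41 and 67, with 23 and 25. A mean-variance trend gave 16 higher in the segment and 115 interactions. Adjustment within the segment alone gave 27 and 20 there, and taking all of chromosome 4 as the segment gave 21 lower. Leaving out 1 array gave 52 to 181 and 67 to 347 over all, 9 to 15 and 5 to 12 in the segment, 28 to 125 and 44 to 266 outside it, 16 to 71 for the reciprocal pair and 21 to 109 interactions. Of 101 named calls, the methods' unequal-variance test lost 95, the fit of the 2 strains alone 60, leaving out NP.P replicate 4 lost 41, no filter 37, an adjusted p under 0.05 lost 31 and quantile normalization 15; the cause was not tested. Replicate numbers did not pair the arrays; with the replicate block 165 and 301 were called, 15 and 11 in the segment, and 6 named calls were lost. Signal near background and 5 arrays per strain limit what can be called.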
